A study of Homo sapiens with 8 samples.

Results

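The kallikrein peptidase cluster was examined in RNA sequencing of 8 xenograft tumours (human cells grown in a host animal) of H2122, an established lung cancer cell line. The 10 genes described are KLK1, KLK5, KLK6, KLK7, KLK8, KLK10, KLK11, KLK12, KLK13 and KLK14. They were picked by name from the 59050 genes in the count files, with their difference between the groups already known, so that difference is given below as a description, with no p-value, and nothing is read from which of them passed a test. The 4 control tumours came from parental cells with genotype WT. The other 4 came from cells with SMARCA4 knocked out, and all 8 tumours had received vehicle. Its product, BRG1, is the motor protein that lets SWI/SNF complexes shift nucleosomes. Whether the knockout line was 1 clone or a pool, and the host's species, strain, age and remaining immune cells, are not given in the sources used here. Nothing in the labels says that the replicate tumours came from separate cultures or animals, so any p-value measures the spread between these samples.

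Kallikrein-related peptidases are secreted serine proteases made as inactive precursors and switched on by cleavage, often by one another. In skin they cut the proteins that hold surface cells together, in the prostate they act on semen proteins, and in many carcinomas they are shed into body fluids. Tissue kallikrein, the product of KLK1, releases kinins from kininogen. Most of the others cut after basic residues, as trypsin does, and SPINK and serpin proteins block them. Several genes of the family are known targets of steroid hormone receptors.

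The genes belong to one family cluster. In GENCODE 29 on GRCh38 it held 16 kallikrein genes over 265.1 kb of chromosome 19, from 50819148 to 51084245, of which 15 code for protein and 1, KLKP1, is a pseudogene. All 10 genes described lie on the minus strand. KLK5 (50943303 to 50953093) and KLK6 (50958631 to 50969673) stand in the middle. KLK10 (51012739 to 51020175), KLK11 (51022216 to 51028039), KLK12 (51029092 to 51035230), KLK13 (51056206 to 51065114) and KLK14 (51077495 to 51084245) follow one another at the far end. Upstream sequence is shown for 1 gene at similar levels in both groups (KLK6), 1 read in knockout tumours only (KLK5) and 2 that were nearly absent from knockout tumours (KLK11 and KLK13). The stretches come from the RefSeq promoter table (GRCh38.p14), which held 8 of the 10 genes. Where that table gives several starts the most upstream one was used, and the printed part is the longest run of the 250 bases before it that lies outside every annotated exon. For KLK11 this part is upstream of the RefSeq start only. It lies inside the gene as GENCODE places it, since the gene there reaches 51028039. Capitals mark the GC box letters GGGCGG on either strand.
KLK6, chr19:50969674-50969841, minus strand: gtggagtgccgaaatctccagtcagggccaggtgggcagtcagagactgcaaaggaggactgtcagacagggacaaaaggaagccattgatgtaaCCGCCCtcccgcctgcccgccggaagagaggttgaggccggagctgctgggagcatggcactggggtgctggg
KLK5, chr19:50953094-50953288, minus strand: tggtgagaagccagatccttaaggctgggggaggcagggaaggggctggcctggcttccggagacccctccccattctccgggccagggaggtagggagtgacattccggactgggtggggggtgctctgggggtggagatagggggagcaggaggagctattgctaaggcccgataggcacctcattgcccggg
KLK11, chr19:51027704-51027896, minus strand: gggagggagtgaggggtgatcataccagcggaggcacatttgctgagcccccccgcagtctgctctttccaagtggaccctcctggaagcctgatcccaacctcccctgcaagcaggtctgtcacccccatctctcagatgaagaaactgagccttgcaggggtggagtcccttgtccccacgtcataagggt
KLK13, chr19:51065115-51065342, minus strand: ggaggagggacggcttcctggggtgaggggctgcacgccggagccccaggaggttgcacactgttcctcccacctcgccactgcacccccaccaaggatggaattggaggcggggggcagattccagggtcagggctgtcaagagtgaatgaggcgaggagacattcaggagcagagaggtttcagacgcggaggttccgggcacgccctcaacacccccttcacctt

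The GC box GGGCGG, searched on both strands over the full windows of 300 bases, was found in 3 of the 8 genes (KLK6, KLK7 and KLK13), against 45.0% of all 35116 windows in the table. Of the 3 matches at KLK6, 1 lies in the printed stretch, and both matches at KLK13 lie beyond its printed stretch. The TATA box letters TATAAA were found in 0 of the 8, against 11.5% of all windows. CpG pairs numbered 15 in the windows of KLK6, KLK7 and KLK13, 9 in KLK10, 7 in KLK5 and KLK12, 3 in KLK11 and 2 in KLK14, beside a median of 14 over all windows.

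Libraries held 19785922 to 23191698 gene counts in parental and 20662882 to 21981123 in knockout tumours. Levels below are in CPM, the count scaled to a common library size by TMM. The targeted gene SMARCA4 averaged 27.3 ± 3.89 CPM with the knockout and 220 ± 16.0 CPM without it (SD, n = 4 each), and no value crossed between groups. An exact permutation test, two-sided, gave p = 0.0286, below which 4 against 4 cannot go. Epithelial markers (EPCAM, KRT7, KRT8, KRT18, KRT19, CDH1, MUC1) had a summed level of 7491 to 8803 CPM (parental) and 6589 to 7957 CPM (knockout). Of all 16219 genes tested by edgeR, 27.0% had an adjusted p under 0.05, with 14.1% lower and 13.0% higher in knockout tumours.

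The kallikrein transcripts as a whole were lower in knockout tumours, and their make-up differed. Summed over the 10 genes, the level was 65.2, 20.2, 88.4 and 104.1 CPM in parental replicates 1 to 4 and 17.8, 12.8, 13.8 and 18.3 CPM in knockout replicates 1 to 4. The lowest parental tumour, replicate 2, stood just above the highest knockout tumour. The knockout mean was 22.6% of the parental mean, and 18.3% with parental replicate 2 left out. In bulk tissue, fewer cells making a transcript and less transcript per cell cannot be told apart. Of the 10 genes, 4 had enough counts to be tested (KLK6, KLK10, KLK11 and KLK13), and 3 of these passed as lower, beside the 14.1% of all genes called lower. Because the genes were chosen on this contrast, and a gene that passes the filter through 1 group only is bound to differ, nothing is read from that share. All 4 knockout values lay below all 4 parental values for 3 of the 10 (KLK11, KLK12 and KLK13), beside 15.3% of all genes tested, and above them for KLK5, beside 14.0%. KLK12 and KLK5 were not themselves tested, so these shares of tested genes come from an unlike set.

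**Figure D1:**
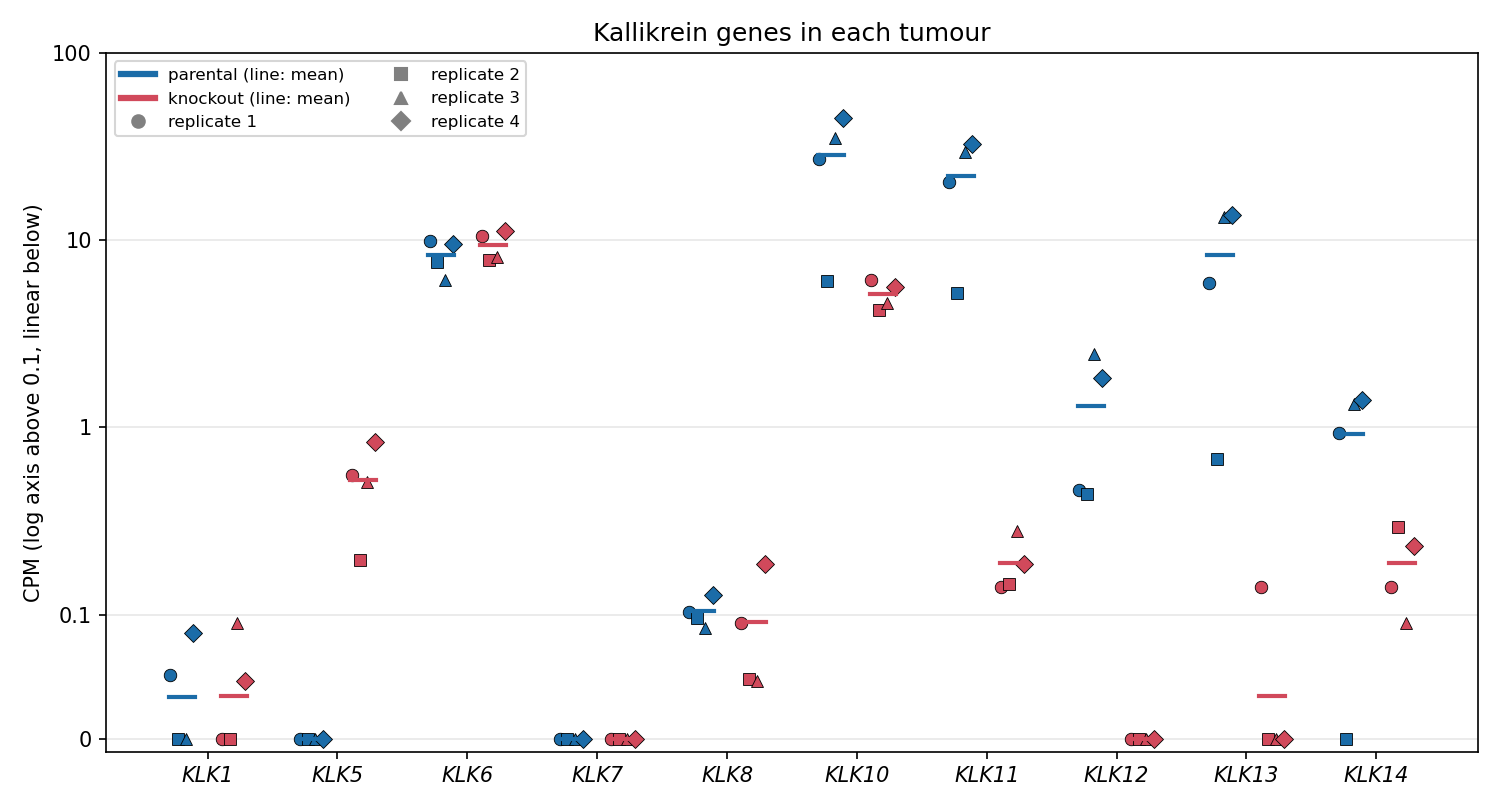
CPM of each of the 10 kallikrein genes (vertical axis, logarithmic above 0.1 and linear below) in 4 parental (blue) and 4 knockout (red) tumours, with 1 symbol per replicate number and lines at group means. KLK6 lies between 6.11 and 11.2 CPM in all 8 tumours, KLK11, KLK12 and KLK13 lie lower in knockout tumours with no overlap, and KLK5 has reads in knockout tumours only.

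KLK10, which was first described as a gene lost in breast cancer lines, had the highest pooled count of the cluster in parental tumours (2506), although KLK6 exceeded it in parental replicate 2. It was at 27.3, 6.09, 35.4 and 45.0 CPM in parental replicates 1 to 4 and at 6.16, 4.24, 4.61 and 5.59 CPM in knockout replicates 1 to 4. The groups met at one point, since parental replicate 2 was just below knockout replicate 1. The fitted log2 fold change was -2.47 (SE 0.459), and the knockout mean was 18.1% of the parental mean.

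KLK11, which encodes a trypsin-like peptidase, showed a far larger difference than its neighbour. Its level was 20.5, 5.21, 29.7 and 32.6 CPM in parental replicates 1 to 4. Knockout replicates 1 to 4 held 3, 3, 6 and 4 counts, which is 0.140 to 0.280 CPM. The groups were far apart, with 1937 parental and 16 knockout counts in all. The fitted log2 fold change was -6.83 (SE 0.646), and 11 of the 16219 genes tested, KLK11 included, had a value as low or lower. Nothing is read from that rank, because KLK11 was chosen on this contrast and entered the fit through parental tumours only.

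KLK12, whose peptidase cuts matrix-associated growth factors, was low throughout. Counts in parental replicates 1 to 4 were 9, 9, 55 and 43, with 0 in each knockout tumour. Taking 3 counts as the most that 0 allows over the 4 knockout libraries, and the parental counts as read, it was at least 38.2-fold lower there. With 1 tumour left out that value ran from 27.22 (without parental replicate 3) to 46.35 (without parental replicate 2). Too few libraries reached the minimum count for it to enter the fit.

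KLK13, a trypsin-like peptidase gene active in several glandular tissues, varied most among parental tumours of the genes read in all 4 of them. Parental replicates 1 to 4 held 114, 14, 299 and 320 counts, or 5.90, 0.682, 13.3 and 13.6 CPM. Knockout replicate 1 held 3 counts and the other knockout tumours 0. Pooled over each group the parental-to-knockout ratio was 246 (exact 95% interval 83.9 to 1197), and at least 184 with knockout replicate 1 left out. Such intervals, here and below, cover counting error of the pooled reads only. They leave out the spread between tumours, which was 19.9-fold for KLK13 among parental tumours. Several reads can also stem from the same molecule, so even counting error can be larger.

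KLK14, whose trypsin-like product takes part in skin shedding, closes the cluster. Parental replicates 1 to 4 held 18, 0, 30 and 33 counts, whereas knockout replicates 1 to 4 held 3, 6, 2 and 5. The groups overlapped, because parental replicate 2 had no read. The ratio of pooled counts was 5.01 (95% interval 2.91 to 9.17), parental over knockout.

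KLK6, whose product is a trypsin-like peptidase abundant in the nervous system, was at similar levels in both groups. It was at 9.88, 7.65, 6.11 and 9.51 CPM in parental and at 10.6, 7.89, 8.16 and 11.2 CPM in knockout replicates 1 to 4. The ranges overlapped, with the lowest value in a parental and the highest in a knockout tumour, and the fitted log2 fold change was 0.19 (SE 0.182). Of its annotated exon bases, 20.3% are shared with the antisense gene AC011483.2, which held 2 parental and 5 knockout counts. The strand setting of the counting is not given in the sources used here, so reads from the 2 strands cannot be told apart.

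KLK5, which encodes a trypsin-like peptidase that starts the skin kallikrein cascade, went the other way at a low level. It had 0 counts in every parental tumour and 12, 4, 11 and 18 in knockout replicates 1 to 4, which is 0.195 to 0.839 CPM. With 3 counts allowed over the 4 parental libraries, it was at least 15.2-fold higher in knockout tumours. The antisense gene AC011483.2 also shares 12.2% of the exon bases of KLK5, with the same limit as for KLK6. That limit holds for KLK10 too, with 6.2% shared with antisense AC011473.2 (9 parental counts and 1 knockout count). For KLK12, 9.0% is shared with antisense AC011473.3 (2 parental and 0 knockout counts).

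The remaining genes were at or near 0. KLK7, the chymotrypsin-like partner of KLK5 in skin, had 0 counts in all 8 tumours, which allows up to 3 counts over each group, or 0.0350 CPM (parental) and 0.0353 CPM (knockout). KLK1 had 3 counts in each group. KLK8, known from the hippocampus, had 9 parental and 8 knockout counts, or 1 to 4 per library. Of the exon bases of KLK8, 40.1% are shared with AC011473.4, a gene that spans KLK8 and KLK9 on the same strand, and reads that fit 2 genes can be set aside as ambiguous in this kind of counting. For KLK9 the shared part is 93.7%, and both it and AC011473.4 had 0 counts.

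**Figure D2:**
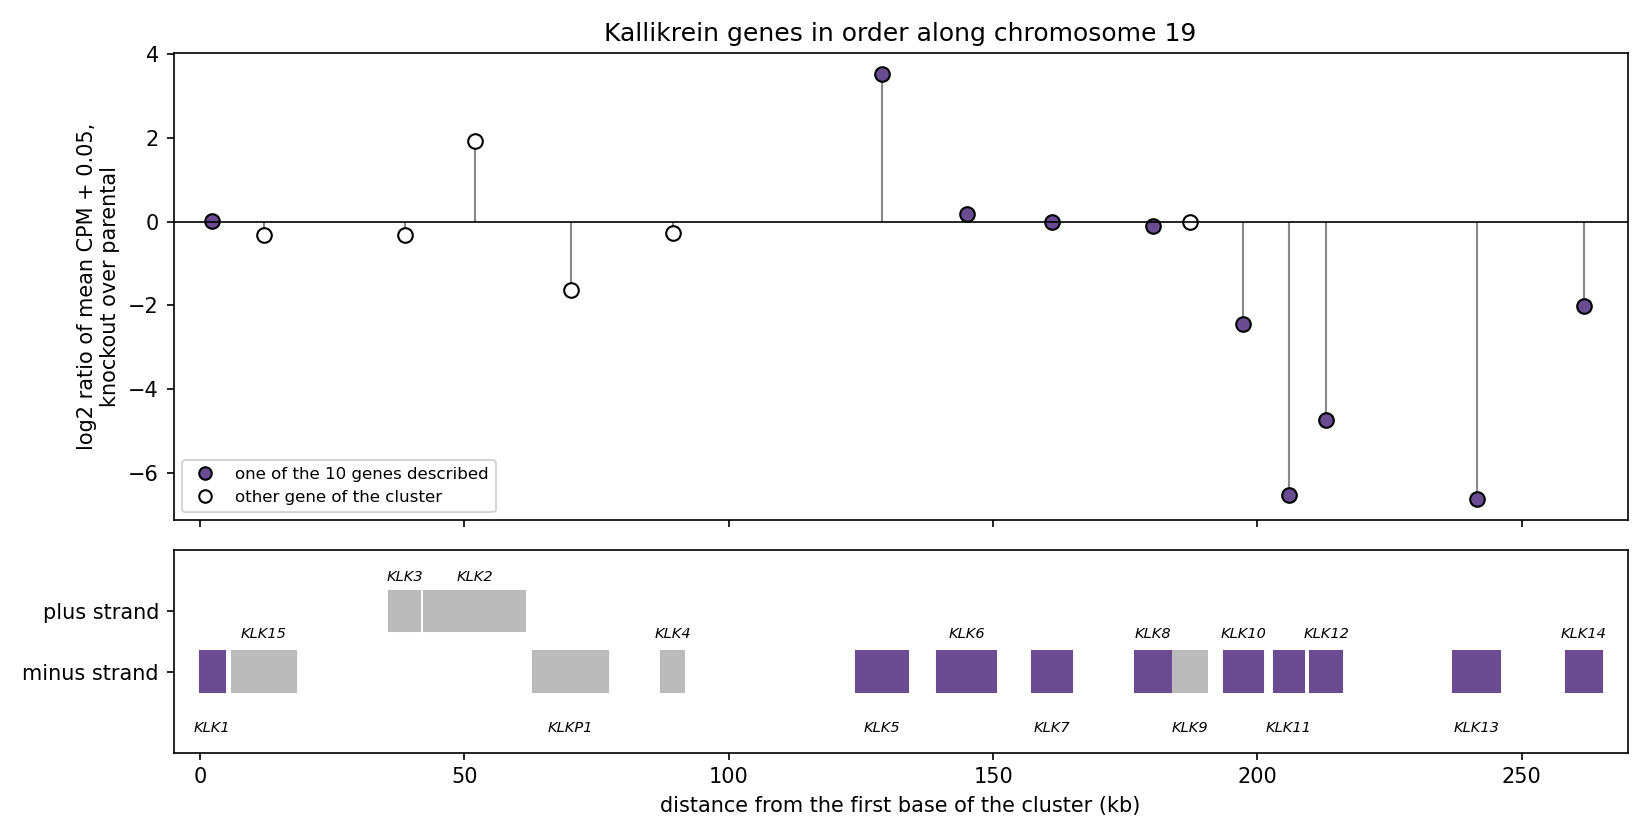
The 16 kallikrein genes in order along chromosome 19 (horizontal axis, kb from the first base of the cluster), with the log2 ratio of mean CPM + 0.05 in knockout over parental tumours above and gene bodies by strand below. The 5 genes from KLK10 to KLK14 lie below 0, with the largest differences at KLK11 and KLK13, while KLK6, KLK7 and KLK8 lie near 0 and KLK5 above it; the added 0.05 shrinks the ratio of low genes.

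Levels of different genes were compared per kb of exon. In parental tumours KLK10 (7.38 ± 4.30 CPM per kb) and KLK11 (7.07 ± 3.96) came first, followed by KLK6 (4.19 ± 0.886) and KLK13 (4.17 ± 3.11), all as SD with n = 4. KLK14 (0.772 ± 0.543) and KLK12 (0.732 ± 0.569) were lower, then KLK8 (0.0560 ± 0.00881) and KLK1 (0.0144 ± 0.0175), with KLK5 and KLK7 at 0. Neighbours in this order differed by less than the larger of their SDs, except for the steps from KLK13 to KLK14, from KLK12 to KLK8 and from KLK8 to KLK1. With the longest transcript as length, KLK11 moved to 14.3 CPM per kb and above KLK10 at 9.14, KLK13 (5.19) above KLK6 (4.85), and KLK12 (1.11) above KLK14 (0.810). In knockout tumours KLK6 led at 4.79 ± 0.856 CPM per kb, followed by KLK10 at 1.34 ± 0.229 and KLK5 at 0.319 ± 0.160.

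The make-up of the reads moved accordingly. KLK6 made up 15.2%, 37.9%, 6.91% and 9.14% of the counts of the 10 genes in parental replicates 1 to 4, against 59.1% to 61.6% in knockout tumours. KLK11 made up 25.9% to 33.6% in parental tumours and 0.785% to 2.03% in knockout tumours. KLK10 made up 30.2% in parental replicate 2 and 40.0% to 43.2% in the other parental tumours, against 30.5% to 34.6% in knockout tumours. These are shares of reads and are not corrected for gene length.

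**Figure D3:**
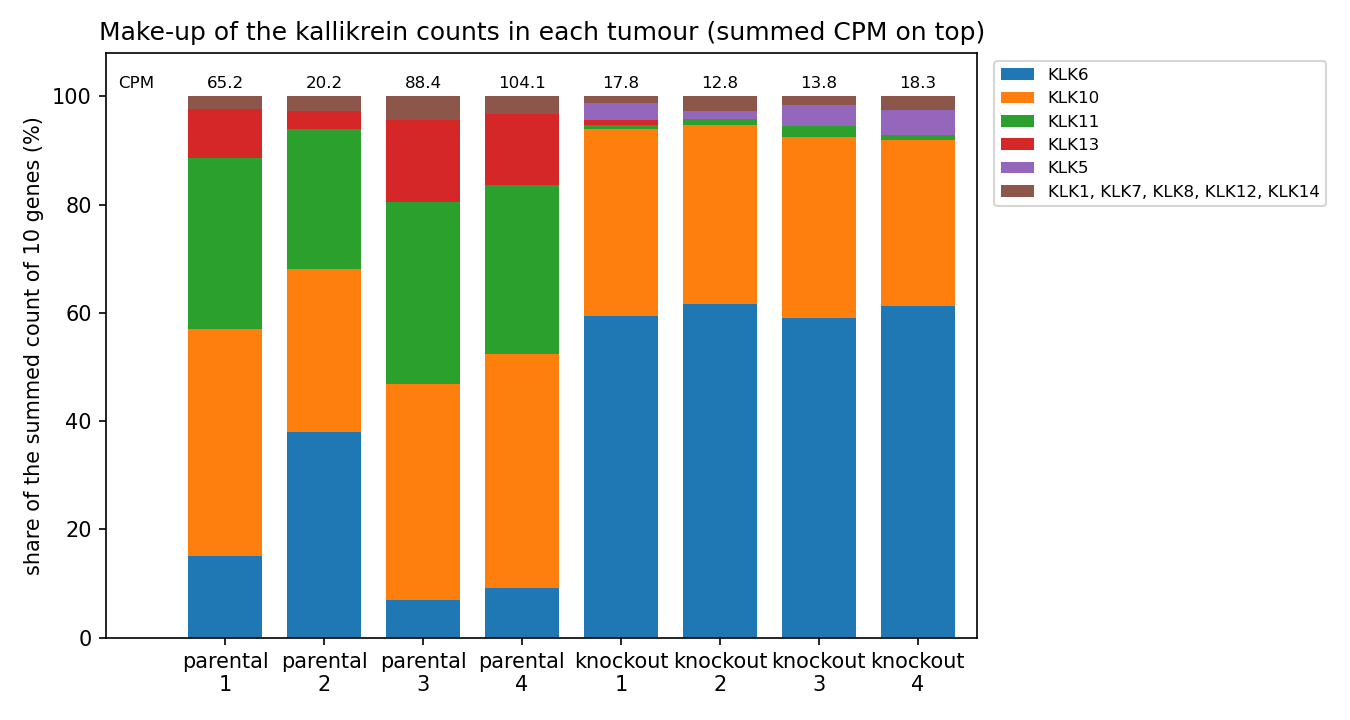
Share of the summed counts of the 10 kallikrein genes (vertical axis, %) taken by each gene in each of 8 tumours, with the summed CPM above each bar. KLK6 takes 59.1% to 61.6% in the 4 knockout tumours, KLK11 and KLK13 nearly vanish there, and parental replicate 2 lies between the groups with 37.9% from KLK6.

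Parental tumours differed among themselves in a way most of these genes shared. KLK10, KLK11, KLK13 and KLK14 all ranked the 4 parental tumours in the order 4, 3, 1, 2 from high to low. KLK12 differed only in placing replicate 3 above replicate 4, while KLK6 ranked them 1, 4, 2, 3. From the lowest to the highest parental tumour KLK13 spanned 19.9-fold, KLK10 7.39-fold, KLK11 6.25-fold and KLK12 5.59-fold, but KLK6 only 1.62-fold. Over that range the count ratio of KLK10 to KLK11 stayed at 1.33, 1.17, 1.19 and 1.38 in parental replicates 1 to 4. In knockout tumours it was 16.5 to 44.0, from 3 to 6 counts of KLK11 each. The count ratio of KLK6 to KLK10 was 1.26 in parental replicate 2 and 0.173 to 0.362 in the other parental tumours, against 1.72 to 2.01 in knockout tumours.

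Markers of other cells also differed between tumours. Leukocyte genes (8 in the list, none at 0 throughout) summed to 65.8 CPM in parental replicate 2, 55.5 CPM in replicate 3 and 7.30 to 12.6 CPM in the other parental tumours, with 12.2 to 29.2 CPM in knockout tumours. Skeletal muscle genes (8, none at 0 throughout) summed to 34.6 CPM in parental replicate 2, against 0.362 to 7.56 CPM in the other parental and 0.389 to 16.9 CPM in the knockout tumours. Fibroblast genes (7) summed to 606 CPM in that tumour, against 179 to 349 CPM in the other parental and 342 to 602 CPM in the knockout tumours. Nearly all of this sum was COL1A1, at a mean of 352.6 CPM (parental) and 445.8 CPM (knockout). The next highest group mean in that list was 12.41 CPM, for LUM in knockout tumours. For 6 endothelial genes the sums were 7.34 to 18.0 CPM (parental) and 8.67 to 15.2 CPM (knockout). Some single markers differed between the groups where the sums overlapped. By edgeR, the endothelial gene VWF fell by 2.37 on the log2 scale (adjusted p = 0.000410), the fibroblast gene LUM rose by 5.00 (1.98e-06), and the epithelial keratins KRT7 and KRT19 fell from 1672 to 1023 and from 1059 to 526 CPM (0.000333 and 8.49e-05). VWF (32 knockout counts) and LUM (33 parental counts) entered the fit through 1 group only and were bound to differ, so nothing is read from their p-values. CDH5, an endothelial cadherin gene, had 36 parental and 0 knockout counts. PECAM1, the endothelial gene with the highest level, did not fall. It was at 7.92 CPM (parental) and 9.76 CPM (knockout), with a log2 fold change of 0.30 (edgeR adjusted p = 0.504). The part of these cells in the kallikrein values was not tested. Epithelial markers in parental replicate 2 stood at 8457 CPM, within the range of the other parental tumours. Acinar markers of salivary gland and pancreas, tissues rich in KLK1, summed to 0.259 to 0.634 CPM in parental tumours and to 0 to 0.140 CPM in knockout tumours, with PRSS1 at 39 against 2 counts and AMY1A, CPA1, PRB1 and STATH at 0 throughout.

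Other kallikrein genes were barely read, and none could be tested. KLK2, a prostate peptidase gene, had 1 parental count and 2, 2, 7 and 5 counts in knockout replicates 1 to 4, a ratio of 16.2 (95% interval 2.51 to 678), or at least 4.10-fold with parental replicate 2 left out. The pseudogene KLKP1 had 13, 14, 21 and 8 counts in parental and 4, 7, 3 and 1 in knockout replicates 1 to 4, so that in CPM the lowest parental tumour just met the highest knockout tumour (ratio 3.69, 95% interval 2.06 to 7.03, parental over knockout). KLK3, which encodes prostate-specific antigen, KLK4 and KLK15 had 1 count each over all 8 libraries. Reads of KLK2, KLK3 and KLKP1 can be divided among one another because their sequences are alike. KLKB1, the plasma kallikrein gene, which lies outside the cluster, had 17 parental and 34 knockout counts.

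Genes around the cluster were looked at over 500 kb on either side. Of 87 other annotated genes there, 15 were tested, and 1 rose and 3 fell in knockout tumours. That is 26.7%, close to the 27.0% of all genes. The nearest tested genes did not pass the test: C19orf48, 14.2 kb before KLK1, had a log2 fold change of 0.06 (edgeR adjusted p = 0.687), and CTU1, which encodes a transfer RNA modifying protein 13.4 kb beyond KLK14, had -0.32 (0.128). C19orf81 rose by 1.43 on the log2 scale (SE 0.290, edgeR adjusted p = 0.00362). ZNF175, a zinc finger gene 487 kb beyond KLK14, had -1.41 (adjusted p = 0.0203), ETFB, an electron transfer flavoprotein gene, -0.49 (0.0393) and AC020909.1 -0.76 (0.0260). The calls of ZNF175, ETFB and AC020909.1 were lost in 4, 6 and 5 of the 8 fits that left out 1 tumour. Neighbours called then numbered 1 without knockout replicate 1 or 3, 2 without parental replicate 1, 3 or 4 or knockout replicate 2, and 3 to 4 otherwise.

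Proteins that act with kallikreins were then examined in lists chosen for their roles, with earlier results of these data known. The shares called in each list are therefore a description, and nothing is read from them. A gene that enters the fit through 1 group only is bound to differ, as with TMPRSS2 (10 knockout counts), ZNF750 (19) and BDKRB1 (26). The same holds for KRT14 (39 parental counts) and HPN (35). Of 22 inhibitors listed, 11 were tested, 0 rose and 2 fell, which is 18.2% beside the 27.0% of all genes, with a median log2 fold change of -0.31. SERPINA5, the protein C inhibitor, which also blocks kallikreins, fell from 4.06 ± 0.993 to 1.23 ± 0.393 CPM (SD, n = 4 each; log2 fold change -1.71, edgeR adjusted p = 0.000629). SERPINA1 (log2 fold change -0.56, adjusted p = 0.0745) and SPINT1 (-0.23, 0.0964), the most abundant inhibitors, did not pass.

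The next list held trypsin-like peptidases outside the family, some of which act in cascades with kallikreins. Of 14 listed, 12 were tested, 2 rose and 6 fell, which is 66.7% beside the 27.0% of all genes, with a median log2 fold change of -0.37. The membrane peptidase gene TMPRSS11D fell from 11.1 ± 2.39 to 0.613 ± 0.119 CPM (SD, n = 4 each; log2 fold change -4.17, edgeR adjusted p = 7.14e-07). TMPRSS2, another membrane peptidase gene, fell from 3.34 ± 2.25 to 0.118 ± 0.0610 CPM (-4.77, adjusted p = 0.000159). PLAT, which encodes tissue plasminogen activator, fell from 43.3 ± 15.2 to 4.73 ± 1.12 CPM (-3.20, adjusted p = 1.16e-05). PRSS8 and ST14, for the membrane peptidases prostasin and matriptase, fell by 1.51 and 0.49 on the log2 scale (adjusted p = 1.16e-05 and 0.00179), and TMPRSS4 fell by 0.99 (0.000353). Urokinase (PLAU) rose from 170.5 ± 39.1 to 305.5 ± 51.5 CPM (0.84, adjusted p = 0.00308) and hepsin (HPN) from 0.414 ± 0.270 to 1.88 ± 0.439 CPM (2.18, adjusted p = 0.00173).

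Substrates and receptors moved in both directions. Of 25 listed, 15 were tested, 3 rose and 4 fell (46.7%, beside 27.0% of all genes, median log2 fold change -0.14). The kinin receptor gene BDKRB2, whose product answers the peptide that KLK1 releases, fell from 47.3 ± 10.6 to 9.63 ± 0.565 CPM (log2 fold change -2.29, edgeR adjusted p = 2.43e-06), and BDKRB1 fell from 1.16 ± 0.153 to 0.305 ± 0.153 CPM (-1.90, adjusted p = 0.00155; SD, n = 4 each). SCNN1A, a subunit of the epithelial sodium channel, fell from 242.8 ± 24.3 to 53.8 ± 18.5 CPM (-2.17, adjusted p = 2.77e-05). Those that rose were IGFBP3, a binding protein for insulin-like growth factors (1.16, adjusted p = 0.00250), the cytokine gene IL1B (1.14, 0.00121) and DSG3, a desmosomal cadherin gene (0.83, 0.00436). DSP (-0.12, 0.703) and DSG2 (0.10, 0.618), the desmosomal genes with the highest levels, did not pass.

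Nuclear receptors known to act on kallikrein promoters were lower more than higher. Of 11 listed, 9 were tested, 0 rose and 6 fell (66.7%, beside 14.1% of all genes called lower), with a median log2 fold change of -0.74. RARG and RARA, retinoic acid receptor genes, fell by 1.06 and 0.74 on the log2 scale (edgeR adjusted p = 9.83e-05 and 0.00301). The vitamin D receptor gene VDR fell by 0.99 (4.33e-05) and the mineralocorticoid receptor gene NR3C2 by 0.95 (0.000981). ESR1, an oestrogen receptor gene, fell by 0.59 (0.0471), a call lost in 7 of the 8 fits that left out 1 tumour. The glucocorticoid receptor gene NR3C1 (0.05, 0.788) and RXRA (-0.09, 0.504) did not pass.

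Squamous differentiation genes, which accompany kallikreins in skin, were mixed. Of 30 listed, 23 were tested, 4 rose and 6 fell (43.5%, beside 27.0% of all genes, median log2 fold change 0.05). ZNF750, a transcription factor gene of terminal epidermal differentiation, fell from 11.2 ± 1.66 to 0.225 ± 0.0911 CPM (SD, n = 4 each; log2 fold change -5.61, SE 0.258, edgeR adjusted p = 3.61e-07). TP63, the lineage factor of squamous epithelium, fell from 12.5 ± 4.23 to 2.46 ± 0.942 CPM (-2.34, adjusted p = 0.000213), and the protease inhibitor gene CSTA fell by 1.70 (0.00290). In parental replicate 2 ZNF750 was at 9.60 and TP63 at 7.65 CPM, the lowest of the 4 parental values for each gene. KRT14, a keratin of basal cells, rose from 0.452 ± 0.254 to 14.8 ± 15.1 CPM (5.01, adjusted p = 0.000433). Its knockout values were 8.12, 5.01, 8.67 and 37.3 CPM, and the log2 fold change was 3.99 without knockout replicate 4. KRT16 rose by 1.24 (0.00211) and the cornified envelope gene LCE3D by 1.81 (0.00203). KRT17 (0.27, 0.240) and KRT6A (-0.03, 0.934), the most abundant keratins of the list, did not pass. KRT14, KRT16 and KRT17 resemble one another closely, which makes their separate counts uncertain. Of the markers of mature epidermis, KRT1 and FLG had at most 11 counts per group and LOR 0 throughout. Other differentiation genes were clearly read. KRT10 was at 32.2 CPM (parental) and 37.2 CPM (knockout), with a log2 fold change of 0.21 (edgeR adjusted p = 0.119). SPRR1B was at 10.7 and 9.55 CPM (-0.16, 0.762), and TGM1 rose from 1.96 to 4.13 CPM (1.07, 0.00720).

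**Figure D4:**
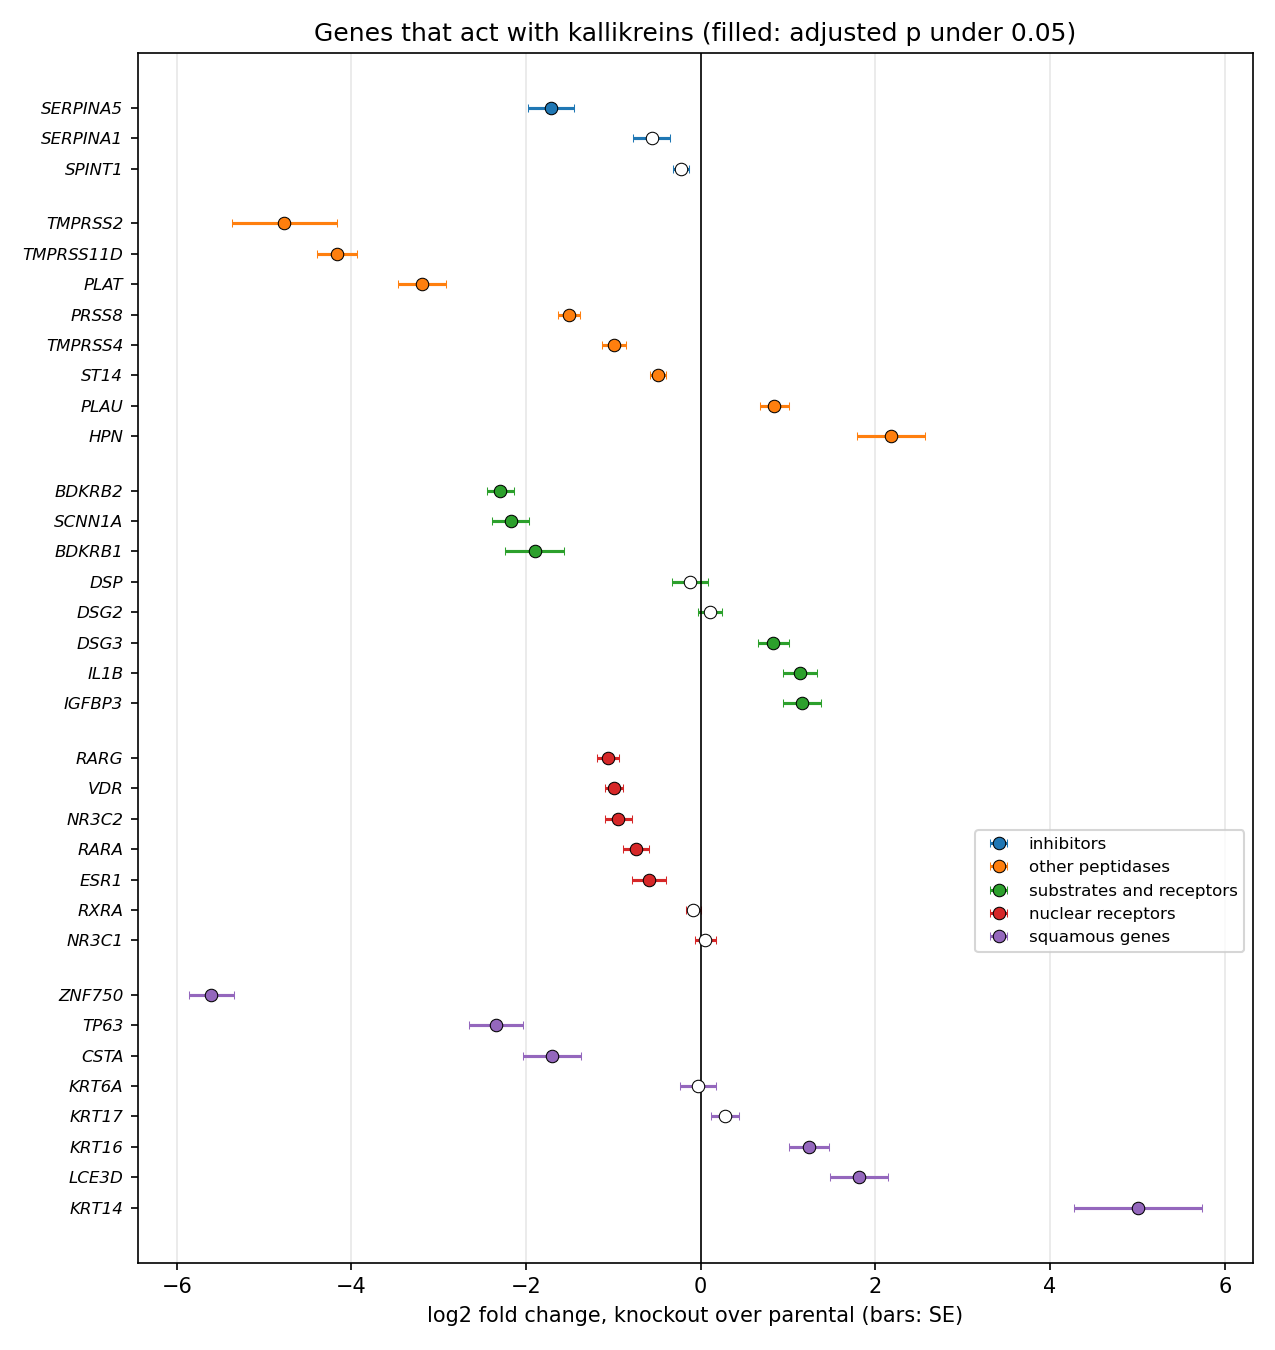
Log2 fold change of knockout over parental (horizontal axis, bars show SE) for named genes that act with kallikreins, in 5 lists by colour; filled points have an edgeR adjusted p under 0.05. TMPRSS2 (-4.77), TMPRSS11D (-4.17) and ZNF750 (-5.61) lie farthest to the left and KRT14 (5.01) farthest to the right.

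The genes most alike in pattern to the summed kallikrein level were ZNF551, PCDH17, RBM38, ZNF175 and GATA2, with Pearson r of 0.998, 0.993, 0.993, 0.986 and 0.982 over the same 8 libraries. These values are a description: they were ranked over all genes tested and reflect the group difference and parental replicate 2 together. PCDH17, a protocadherin gene on chromosome 13 (57631810 to 57729311), was at 4.40, 0.780, 7.85 and 9.09 CPM in parental replicates 1 to 4 and at 0.233 to 0.466 CPM in knockout tumours. ZNF551, a zinc finger gene on chromosome 19 (57681969 to 57717301), was at 2.53, 0.487, 3.83 and 5.48 CPM in parental replicates 1 to 4 and at 0.243 to 0.513 CPM in knockout tumours. Both had their lowest parental value in replicate 2, as did the other 3. In ZNF551 and ZNF175 that value lay within the knockout range. For ZNF175 it was 0.487 CPM, against 0.341 to 0.606 CPM in knockout tumours. RBM38, an RNA-binding protein gene, and GATA2, a zinc finger factor gene, had smaller spans, at 21.2 to 38.0 and 10.7 to 17.4 CPM in parental tumours.

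**Figure D5:**
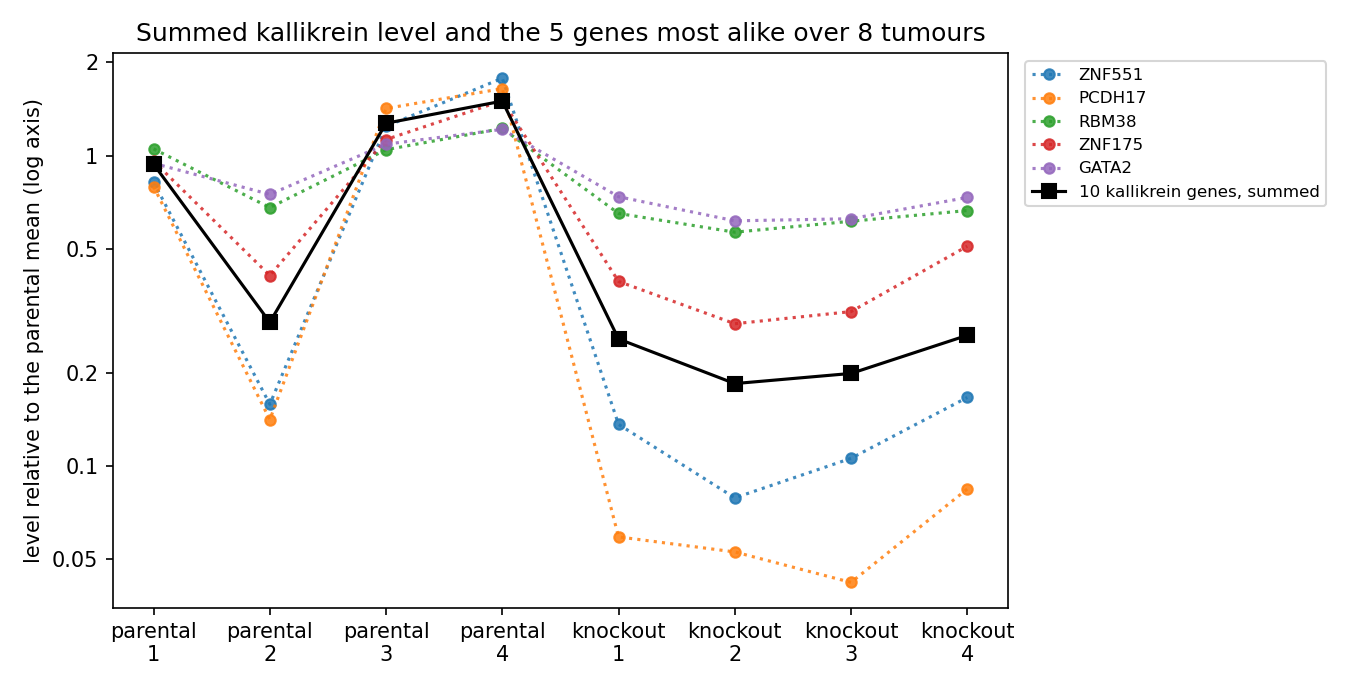
Level of each gene relative to its parental mean (vertical axis, logarithmic) in 4 parental and 4 knockout tumours for the 10 kallikrein genes summed (black squares) and the 5 genes most alike (coloured points). All 6 series are lowest among parental tumours in replicate 2.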

How the data were processed

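The authors deposited 1 file of raw read counts per gene symbol for each of the 8 tumours, with no replicates pooled. TopHat2 2.1.1, HTSeq 0.11.0 and the build hg38 are named per the submitters' processing notes. The annotation, the strand setting and any removal of host reads are not given in the sources used here, so host reads that resemble human transcripts can be counted. The 5 summary lines of each file were left out; ambiguous reads made up 3.98% to 4.31% of the reads listed. Each library differed from the others of its group by far more than sampling noise (chi-square per degree of freedom at least 8.21). Genes were kept by filterByExpr (minimum count 10, minimum total 15), which left 16219. They were scaled by TMM and compared by the quasi-likelihood F-test of edgeR 4.0.16 in R 4.3.3, with Benjamini-Hochberg adjustment over all genes tested and a threshold of 0.05. The SE is the log2 fold change divided by the square root of F. CPM is the deposited count scaled by the gene total times its TMM factor. A count of 0 allows up to 3 counts. In a fold given as a least value, the count of the other group is taken as read, without its own error. The fit was tested on simulated data. Positions, exon lengths and overlaps come from GENCODE 29, on the same build. DESeq2 1.42.0, limma-voom (limma 3.58.1), other scalings and filters, a replicate block and leaving out each tumour were tried as alternatives.

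The 10 genes and the lists were chosen with earlier results of these data known. Named besides the 10 are SMARCA4, other kallikrein genes with a count, up to 6 called genes with the largest change and 2 with the highest level in each list, up to 4 called neighbours and the nearest tested one on each side, and the 5 genes most alike by Pearson r of log2 CPM (prior count 2). The single genes KRT1, KRT10, FLG, LOR, SPRR1B, TGM1 and KLK9 were named for what they are and not by this rule. The same holds for the genes that overlap kallikrein exons, AC011473.4 among them, and for the marker genes. Replicate numbers were not taken as pairs, since nothing in the labels ties them. Some genes that the rule names are not reported here, though the counts of their lists include them.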

Additional observations from a re-analysis of the deposited data

Results flagged for a closer look

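Among 27 sets of 4 tumours compared for a single value far from the other 3, 5 stood apart, where chance alone flags about 5% of sets. Each rests on 1 to 3 reads. KLK2, KLK3 and KLK15 were each at 0.0487 CPM in parental replicate 2, from 1 read apiece, and at 0 in the other parental tumours. KLK4 was at 0.0425 CPM in parental replicate 4, also from 1 read, and at 0 in the others. KLK13 was at 0.140 CPM in knockout replicate 1, from 3 reads, and at 0 in the other knockout tumours. With the other 3 values at 0, any read at all sets a tumour apart by this measure.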

How the results depend on the processing

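Since the 10 genes were chosen on this contrast, the number of them called lower says nothing about stability. It was 3 here, 5 with no filter on low counts, where KLK12 and KLK14 joined, 2 when a CPM of at least 1 in 4 libraries was required, which drops KLK13, and 3 to 4 with 1 tumour left out. KLK5, not tested in the main fit, was called higher with no filter. The same call was made without parental replicate 1, 2, 3 or 4 or knockout replicate 2. The knockout share of the parental summed level was 22.2% to 23.2% over 4 scalings and 18.2% to 26.9% with 1 tumour left out. The replicate block gave 3871 changed genes in all, 3 of the 10 kallikreins, 32 genes of the lists and 3 neighbours; deviations of same-numbered tumours correlated at -0.0431, -0.0217, -0.187 and 0.0863, so the numbers were not treated as pairs, and the block is not used to judge any call. Neighbours called numbered 1 to 4 with 1 tumour left out. For named genes outside the 10, 310 of 319 values from alternatives on all 8 tumours kept their direction and side of the threshold, as did 336 of 368 with 1 tumour left out. Signs turned only for genes that did not pass: DSP ran from -0.27 to 0.078, DSG2 from -0.0078 to 0.19, NR3C1 from -0.041 to 0.15, C19orf48 from -0.00011 to 0.094 and KRT6A from -0.17 to 0.13 with 1 tumour left out, and KRT6A was 0.015 by upper-quartile scaling. SERPINA1 passed with DESeq2, with no filter, with the block and without parental replicate 4. Depth limits KLK1, KLK7 and KLK8, whose counts are too few to show any difference.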
